A study of Xenopus laevis with 6 samples.

Results

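The genes described here encode the proteins of the cytosolic ribosome of the frog Xenopus laevis, as counted in the poly(A) RNA of whole embryos. Members were all rows of the count table whose symbol, without its .L or .S ending, starts with rpl or rps followed by a digit or is rpsa, rplp0, rplp1 or rplp2, leaving out the rps6k kinase genes. This gave 111 of 35773 gene models, which belong to 62 gene symbols. X. laevis is an allotetraploid, and most of its genes persist as an L copy and an S copy from its ancestral subgenomes. Of the member symbols, 48 had both copies in the table, 12 had a single L or S row, and 3 further rows (rpl37, rpl37a.1 and rps24.1) carried neither ending. The rows comprise 44 of the small subunit, 60 of the large subunit and 3 of the stalk, and a further 4 for paralogs or a binding partner of ribosomal proteins (rpl22l1.L, rpl7l1.L, rpl3l.L and rps19bp1.L). The genes rps14, rps19, rpl10, rpl11, rpl41 and rplp2 were not analysed here.

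The cytosolic ribosome translates mRNA into protein. Its small subunit binds the mRNA and holds the decoding site, and its large subunit forms the peptide bond and the tunnel through which the new chain leaves. A stalk of acidic proteins on the large subunit recruits the elongation factors. The subunits need equal numbers of nearly every protein, and vertebrate ribosomal protein mRNAs share a tract of pyrimidines at their 5′ end (5′ TOP), through which the mTOR pathway adjusts their translation together. In Xenopus the egg supplies ribosomes for early cleavage, and the embryo takes over making new ones as development proceeds.

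By the sample labels all embryos were collected at NF stage 32 (late tailbud), and the match in stage between libraries was not tested. There were 2 libraries of embryos injected with kdm5c MO, 2 of embryos injected with kdm3a MO and 2 of control embryos, where MO is an antisense morpholino oligonucleotide and both targets are histone lysine demethylases (Kdm5c of H3K4, Kdm3a of H3K9). The sample labels place injection at the 2-cell stage, while the general injection methods name the 1-cell stage outside in situ work. Whether controls received an injection is not stated in the labels. The number of embryos in a library is not stated, and although the series describes biological replicates, nothing says that they came from separate clutches, so p-values measure only the spread between these libraries. A later date stands in the labels of both kdm3a MO libraries, so that condition and date cannot be told apart.

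The libraries held 12838245 to 20217436 counts, and a count of 3 corresponds to between 0.143 and 0.303 CPM, the unit of relative abundance used below, which relates each count to the total of its library after TMM scaling (trimmed mean of M values) over the 6 libraries. Of the targeted kdm5c, the L copy was at 142 and 129 CPM in kdm5c MO libraries, against 115 and 108 CPM in controls, and the S copy at 34.6 and 65.2 CPM, against 61.2 and 62.6 CPM in controls. Of the targeted kdm3a, the L copy was at 409 and 374 CPM in kdm3a MO libraries, against 122 and 78.3 CPM in controls, and the S copy at 432 and 239 CPM, against 262 and 146 CPM in controls. Of the copies of each target in the libraries of its own morpholino, only kdm5c.S in kdm5c MO 1 was below both controls. These are mRNA levels, and protein was not measured in these libraries. Library kdm5c MO 1 stood apart in how concentrated its counts were. Its 100 most counted models took 25.8% of all counts, against 17.2% to 19.0% in the other 5, and its TMM factor was 0.710, against 1.02 to 1.16. It also had the highest summed level of the 4 muscle markers (29900 CPM, against 3700 to 19000 CPM elsewhere, lowest in control 1) and of the 3 epidermal markers (12300 CPM, against 4080 to 7300 CPM elsewhere). Markers of lens were at 0 in control 1 and at 8.59 to 65.4 CPM elsewhere, and blood markers lay between 0.135 and 4.44 CPM. Neural markers were highest in kdm5c MO 1 (980 CPM), liver and gut markers in control 1 (265 CPM), and heart markers were lowest in kdm5c MO 1 (33 CPM). Notochord markers were at 1680 and 1620 CPM in kdm3a MO libraries, against 688 to 1330 CPM elsewhere, lowest in control 1. Control 1 also stood out over the 16675 models with a mean of at least 100 counts. It was highest for 27% and lowest for 23.1% of them, and kdm5c MO 1 for 25.2% and 23.5%. In a whole embryo more cells of a type and more RNA per cell cannot be told apart.

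Ribosomal protein copies took 10.1% and 5.71% of all counts in kdm5c MO libraries, against 3.14% and 3.93% in controls. In kdm3a MO libraries they took 6.13% and 2.62%. Both kdm5c MO libraries were thus above both controls, while the kdm3a MO libraries lay on either side of them. The mean was 7.93% ± 3.13 (SD, n = 2) in kdm5c MO libraries and 3.54% ± 0.556 (SD, n = 2) in controls, a ratio of 2.24. The exact two-sided permutation test gave p = 0.33, the smallest value that 2 against 2 can give. The mean of 4.38% ± 2.49 (SD, n = 2) in kdm3a MO libraries differed from that of controls by 0.840 percentage points (exact permutation p = 1). The difference from kdm5c MO libraries was -3.55 percentage points (exact permutation p = 0.667). The groups overlapped, with kdm3a MO 3 at 6.13% and kdm5c MO 2 at 5.71%. The 95% exact (Clopper-Pearson) interval of the share in kdm5c MO 1 was 10.13% to 10.16%, and such intervals cover counting error only and are too narrow where both reads of a pair were counted.

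**Figure D1:**
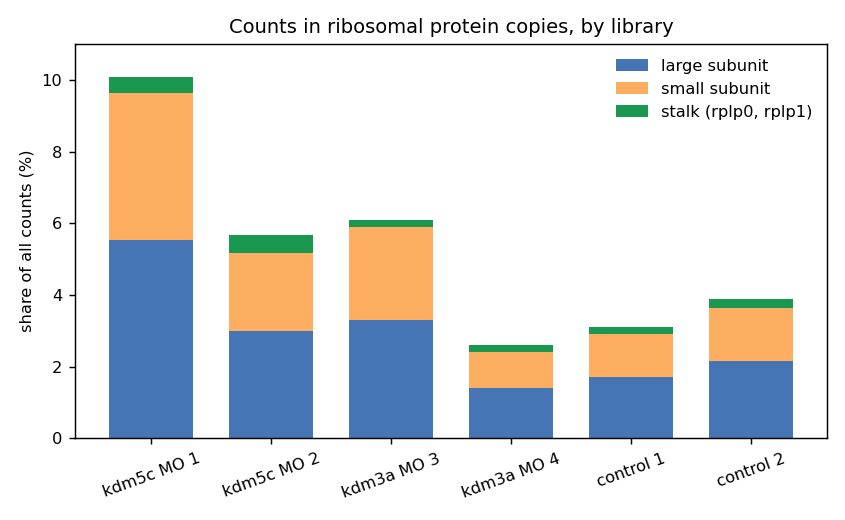
Stacked bars give the percentage of all counts of each library (y axis) that fell on large subunit, small subunit and stalk copies, for 2 kdm5c MO, 2 kdm3a MO and 2 control libraries (x axis), leaving out the 4 rows of paralogs and partners. The tallest bar is kdm5c MO 1, where the large subunit copies took 5.54% and the small subunit copies 4.10%, and the lowest is kdm3a MO 4, with 1.40% and 1.02%.

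Small and large subunit copies kept similar proportions as the total moved. The small subunit took 4.10% and 2.18% of counts in kdm5c MO libraries, 2.60% and 1.02% in kdm3a MO libraries, and 1.20% and 1.48% in controls. The sum of the stalk copies followed the rest less closely, which holds for rplp0 and not for rplp1.L. The 3 copies took 0.426% and 0.496% in kdm5c MO libraries, 0.210% and 0.169% in kdm3a MO libraries, and 0.190% and 0.258% in controls, so the stalk share was highest in kdm5c MO 2 and not in kdm5c MO 1.

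The first comparison asks which ribosomal protein mRNAs differed in kdm5c MO embryos from controls. Every one of the 107 copies tested had a positive log2 fold change, where 49.2% of all models did. None of the copies passed the limits of the test. The median was 1.76 (interquartile range 1.5 to 1.94), which corresponds to more than 3-fold, beside a median of -0.02 over all 26152 models tested. In 102 copies the fitted value was above 2-fold, where 13.9% of all models were. The standard error (SE) of a log2 fold change ran from 0.65 to 0.96. By the edgeR exact test with a false discovery rate (FDR) below 0.01 and a fold change above 4, 0 copies were called, with 0% of all models called. The lowest FDR of a copy was 1. At an unadjusted p below 0.05, 80 of the 107 copies were higher, where 3.29% of all models were. In 97 copies both kdm5c MO libraries were above both controls, where 17.7% of all models showed this order. As described below, the copies moved together across libraries. These counts, and those of each subunit below, are therefore not counts of independent observations. DESeq2 and the quasi-likelihood test of edgeR also called 0 copies. At an unadjusted p below 0.05 DESeq2 gave 98 copies (5.92% of all models) and the quasi-likelihood test 51 (3.38% of all models). Without kdm5c MO 1 the median was 0.81 and 0 copies had an unadjusted p below 0.05, beside 0.362% of all models in either direction. The number was 15 without control 1 (1.67% of all models), 16 without control 2 (8.90% of all models) and 35 with scaling by library size alone (2.51% of all models). Scaling by library size alone gave a median of 1.29, and TMM computed without the ribosomal protein rows gave 1.77. The summed muscle markers were at 29900 and 9060 CPM in kdm5c MO libraries, and at 3700 and 9680 CPM in controls. Their part in the result was not tested.

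Taking the libraries singly, the median copy in kdm5c MO 1 was 2.42 above control 1 and 2.25 above control 2 on the log2 scale. In kdm5c MO 2 it was 0.89 above control 1 and 0.75 above control 2. The median copy of control 1 was 0.11 below that of control 2. The difference between kdm5c MO 1 and kdm5c MO 2 was 1.55, which is larger than that between kdm5c MO 2 and either control.

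Among small subunit copies, the median log2 fold change was 1.87 in kdm5c MO against control. At an unadjusted p below 0.05, 34 of 43 were higher, where 3.29% of all models were. rps6 encodes the subunit protein that S6 kinase phosphorylates downstream of mTOR. Its L copy was at 2399 and 1142 CPM in kdm5c MO libraries, 1205 and 494 CPM in kdm3a MO libraries, and 588 and 613 CPM in controls. Both kdm5c MO libraries were above both controls, and the log2 fold change was 1.56 ± 0.71 (SE, unadjusted p = 0.0335). rps6.S was at 1289 and 428 CPM in kdm5c MO libraries, 674 and 272 CPM in kdm3a MO libraries, and 241 and 358 CPM in controls (kdm5c MO against control 1.52 ± 0.78 SE, log2). For both copies kdm3a MO 3 was above the controls and kdm3a MO 4 was not above the higher of them.

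rpsa encodes a small subunit protein that is also known as the laminin receptor precursor. rpsa.L was at 1753 and 1009 CPM in kdm5c MO libraries, 981 and 452 CPM in kdm3a MO libraries, and 413 and 703 CPM in controls. rpsa.S was at 2721 and 1509 CPM in kdm5c MO libraries, 1421 and 688 CPM in kdm3a MO libraries, and 1007 and 872 CPM in controls. The log2 fold changes in kdm5c MO against control were 1.31 ± 0.71 (SE) for the L copy and 1.18 ± 0.69 (SE) for the S copy, both among the smaller values of the small subunit, and neither had an unadjusted p below 0.05.

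rps3 encodes a protein at the entry of the mRNA channel. rps3.L was at 1707 and 486 CPM in kdm5c MO libraries, 1009 and 373 CPM in kdm3a MO libraries, and 385 and 438 CPM in controls. rps3.S was at 1350 and 553 CPM in kdm5c MO libraries, 597 and 276 CPM in kdm3a MO libraries, and 271 and 343 CPM in controls. By the exact test only the S copy had an unadjusted p below 0.05 in kdm5c MO against control (1.64 ± 0.73 SE, log2, p = 0.0321, against 1.42 ± 0.80 SE, p = 0.0866, for rps3.L). A difference between the copies was not shown, as the change of L minus that of S was -0.212 (edgeR quasi-likelihood, unadjusted p = 0.837).

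rps26 encodes a protein at the mRNA exit side that is mutated in some people with Diamond-Blackfan anaemia. Its L copy was at 704 and 279 CPM in kdm5c MO libraries, 273 and 85.7 CPM in kdm3a MO libraries, and 128 and 132 CPM in controls. The S copy was at 912 and 326 CPM in kdm5c MO libraries, 361 and 102 CPM in kdm3a MO libraries, and 190 and 195 CPM in controls. The controls lay close together for both copies, and the kdm5c MO libraries were above them (log2 fold changes 1.93 ± 0.73 SE for rps26.L and 1.69 ± 0.75 SE for rps26.S).

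rps27a is made as a fusion with ubiquitin, which is cleaved off. rps27a.L was at 1718 and 638 CPM in kdm5c MO libraries, 733 and 232 CPM in kdm3a MO libraries, and 316 and 297 CPM in controls. rps27a.S was at 1120 and 431 CPM in kdm5c MO libraries, 369 and 135 CPM in kdm3a MO libraries, and 250 and 216 CPM in controls. Its log2 fold changes in kdm5c MO against control were 1.95 ± 0.75 (SE) for the L copy and 1.74 ± 0.74 (SE) for the S copy. A symbol of the small subunit also had 1 of the 3 highest log2 fold changes of this comparison. rps28p9.L was at 686 and 193 CPM in kdm5c MO libraries, 210 and 50.5 CPM in kdm3a MO libraries, and 97.4 and 86.9 CPM in controls (2.26 ± 0.79 SE, log2, unadjusted p = 0.00723).

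Among large subunit copies, the median log2 fold change was 1.74 in kdm5c MO against control. At an unadjusted p below 0.05, 44 of 58 were higher, where 3.29% of all models were. Both ends of the range were here. rpl37.L, which encodes a small zinc-binding protein, was at 1526 and 417 CPM in kdm5c MO libraries, 440 and 123 CPM in kdm3a MO libraries, and 199 and 200 CPM in controls. Its log2 fold change in kdm5c MO against control was 2.29 ± 0.80 (SE, unadjusted p = 0.00748, FDR 1). rpl29.L was next at 632 and 180 CPM in kdm5c MO libraries, 182 and 49.0 CPM in kdm3a MO libraries, and 92.6 and 78.6 CPM in controls (2.25 ± 0.79 SE, log2). In both copies the kdm5c MO libraries were above the controls, and kdm3a MO 3 was close to kdm5c MO 2.

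At the other end stood rpl39.L, whose protein lines the exit tunnel. It was at 15.6 and 7.66 CPM in kdm5c MO libraries, 19.7 and 5.00 CPM in kdm3a MO libraries, and 8.78 and 12.3 CPM in controls. The kdm5c MO and control libraries overlapped and the log2 fold change was 0.14 ± 0.77 (SE), with its sign turned to -0.30 by scaling on library size alone. The S copy of the same gene was at 1249 and 397 CPM in kdm5c MO libraries, 478 and 106 CPM in kdm3a MO libraries, and 215 and 190 CPM in controls (2.03 ± 0.77 SE, log2).

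rpl3 encodes a large subunit protein that reaches towards the peptidyl transferase centre. rpl3.L was at 4008 and 1895 CPM in kdm5c MO libraries, 1305 and 991 CPM in kdm3a MO libraries, and 1509 and 1826 CPM in controls. rpl3.S was at 714 and 356 CPM in kdm5c MO libraries, 141 and 121 CPM in kdm3a MO libraries, and 408 and 322 CPM in controls. Against control, the log2 fold changes in kdm5c MO embryos were 0.83 ± 0.72 (SE) for rpl3.L and 0.56 ± 0.70 (SE) for rpl3.S, and without kdm5c MO 1 the value of rpl3.S was -0.052. rpl4.S, also of the large subunit, had the third lowest value (0.80 ± 0.69 SE). It was at 1084 and 598 CPM in kdm5c MO libraries, 475 and 444 CPM in kdm3a MO libraries, and 420 and 549 CPM in controls.

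rpl5 encodes the partner of Rpl11 in the particle with 5S rRNA, which in mammals binds Mdm2 when ribosome assembly fails. rpl5.L was at 2048 and 1206 CPM in kdm5c MO libraries, 992 and 607 CPM in kdm3a MO libraries, and 604 and 840 CPM in controls. rpl5.S was at 976 and 327 CPM in kdm5c MO libraries, 580 and 224 CPM in kdm3a MO libraries, and 177 and 293 CPM in controls. Both copies were higher in each kdm5c MO library than in each control, with log2 fold changes of 1.18 ± 0.69 (SE) for L and 1.48 ± 0.78 (SE) for S, and neither had an unadjusted p below 0.05.

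rpl38 is known from a mouse mutant with a short tail and altered translation of Hox mRNAs. rpl38.L was at 219 and 27.8 CPM in kdm5c MO libraries, 115 and 32.7 CPM in kdm3a MO libraries, and 43.4 and 60.9 CPM in controls. rpl38.S was at 981 and 315 CPM in kdm5c MO libraries, 513 and 113 CPM in kdm3a MO libraries, and 181 and 183 CPM in controls. The kdm5c MO libraries lay on either side of the controls for the L copy (1.25 ± 0.96 SE, log2, the widest error among the members) and above both for the S copy (1.84 ± 0.77 SE).

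The stalk has rplp0 as its base, to which the P1 and P2 proteins bind. rplp0.L was at 2237 and 3323 CPM in kdm5c MO libraries, 638 and 978 CPM in kdm3a MO libraries, and 1234 and 1442 CPM in controls. rplp0.S was at 664 and 626 CPM in kdm5c MO libraries, 206 and 256 CPM in kdm3a MO libraries, and 193 and 258 CPM in controls. The kdm5c MO libraries were thus above the controls for both copies, and rplp0.L was higher in kdm5c MO 2 than in kdm5c MO 1. The log2 fold changes in kdm5c MO against control were 1.06 ± 0.67 (SE) for rplp0.L and 1.52 ± 0.65 (SE, unadjusted p = 0.0233) for rplp0.S. rplp1.L behaved unlike rplp0 and like the body of the subunits, at 3095 and 879 CPM in kdm5c MO libraries, 1175 and 291 CPM in kdm3a MO libraries, and 433 and 523 CPM in controls (2.06 ± 0.80 SE).

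The paralogs and the partner had smaller values than the median subunit copy in kdm5c MO against control. Of the 3 tested, 0 had an unadjusted p below 0.05, where 4.29% of all models did. rpl22l1.L, a paralog of rpl22, was at 308 and 96.8 CPM in kdm5c MO libraries, 70.9 and 21.4 CPM in kdm3a MO libraries, and 90.2 and 59.96 CPM in controls (1.44 ± 0.77 SE). rpl7l1.L, a paralog of rpl7, was at 556 and 205 CPM in kdm5c MO libraries, 173 and 165 CPM in kdm3a MO libraries, and 248 and 154 CPM in controls (0.93 ± 0.76 SE). rps19bp1.L encodes a protein that binds Rps19 and is no part of the subunit. It was at 129 and 43.9 CPM in kdm5c MO libraries, 48.4 and 32.6 CPM in kdm3a MO libraries, and 49.0 and 30.2 CPM in controls (1.13 ± 0.75 SE). For rpl7l1.L and rps19bp1.L the kdm5c MO and control libraries overlapped.

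A further 4 rows were at 0 in at least 1 library and did not pass the filter on low counts. rpl3l.L, a paralog of rpl3 that mammals express in heart and skeletal muscle, had 4 counts in kdm3a MO 3 and 0 in the other 5 libraries. The rows rpl37 and rpl37a.1 had 2 counts each, in kdm5c MO 2 only. rps24.1 was at 0.808 and 0.303 CPM in kdm5c MO libraries, 0.856 and 0 CPM in kdm3a MO libraries, and 0.268 and 0.468 CPM in controls, from at most 18 counts in a library.

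The second comparison asks the same of kdm3a MO embryos. Relative to controls, the median log2 fold change of the 107 copies was 0.43 (range -1.51 to 1.17), beside a median of -0.01 over all 26491 models tested. The value was positive for 96 copies and negative for 11, where 49.1% of all models were positive. By the edgeR exact test 0 of 107 copies were called, where 0.125% of all models were, and DESeq2 and the quasi-likelihood test called 0 as well. At an unadjusted p below 0.05, 0 copies were higher, where 1.92% of all models were, and 1 copy was lower, where 1.28% of all models were. In 0 copies were both kdm3a MO libraries above both controls, an order found in 17.1% of all models. Both kdm3a MO libraries were below both controls in 3 copies, rpl3.L, rpl3.S and rplp0.L, an order found in 15% of all models. The median copy of kdm3a MO 3 was 1.11 and 0.99 above control 1 and control 2 on the log2 scale, and that of kdm3a MO 4 was 0.45 and 0.52 below them. Without kdm3a MO 3 the median turned to -0.49, and without kdm3a MO 4 it was 1.02.

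The copy with an unadjusted p below 0.05 in the exact test was rpl3.S, with a log2 fold change of -1.51 ± 0.60 (SE, p = 0.0156, FDR 1) in kdm3a MO against control. rplp0.L followed with -0.76 ± 0.64 (SE) and rpl22l1.L with -0.73 ± 0.74 (SE), although kdm3a MO 3 had more rpl22l1.L than control 2. Among the highest values were those of rpl23.S (1.17 ± 0.90 SE) and rpl24.S (0.83 ± 0.77 SE). rpl23.S, which encodes a large subunit protein on the face that meets the small subunit, was at 250 and 41.0 CPM in kdm3a MO libraries, against 51.1 and 74.99 CPM in controls. rpl24.S, for a protein that bridges the subunits, was at 322 and 91.8 CPM in kdm3a MO libraries, against 97.9 and 129 CPM in controls. In both of these, kdm3a MO 3 was above both controls and kdm3a MO 4 below both.

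The morpholinos were also set against each other. In kdm3a MO relative to kdm5c MO embryos the median log2 fold change of the copies was -1.36 (range -2.14 to 0.08), beside 0.04 over all 26092 models tested. The value was negative for 106 of 107 copies, while 51.9% of all models had a positive one. By the edgeR exact test 0 copies were called, where 0.0537% of all models were, and the lowest FDR was 0.393. At an unadjusted p below 0.05, 22 copies were lower, where 3.13% of all models were. Both kdm3a MO libraries were below both kdm5c MO libraries in 36 copies, where 15.9% of all models were. rpl22l1.L had the lowest value (-2.14 ± 0.80 SE), followed by rpl3.S (-2.04 ± 0.62 SE, unadjusted p = 0.00161 in the exact test) and rpl36a.L (-1.92 ± 0.81 SE). rpl36a.L was at 820 and 228 CPM in kdm3a MO libraries, against 2822 and 1099 CPM in kdm5c MO libraries. The highest values were those of rpl39.L (0.08 ± 0.86 SE), rpl23.S (-0.65 ± 1.0 SE) and rps3.L (-0.68 ± 0.81 SE). Without kdm5c MO 1 the number of copies with an unadjusted p below 0.05 was 3 (2.42% of all models) and without kdm3a MO 4 it was 1 (2.98% of all models), while without kdm5c MO 2 it was 82 (10.1% of all models) and without kdm3a MO 3 it was 68 (4.07% of all models). The quasi-likelihood test gave 5 such copies (4.2% of all models) and scaling by library size alone 7 (3.76%), against 58 with DESeq2 (5.88%).

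**Figure D2:**
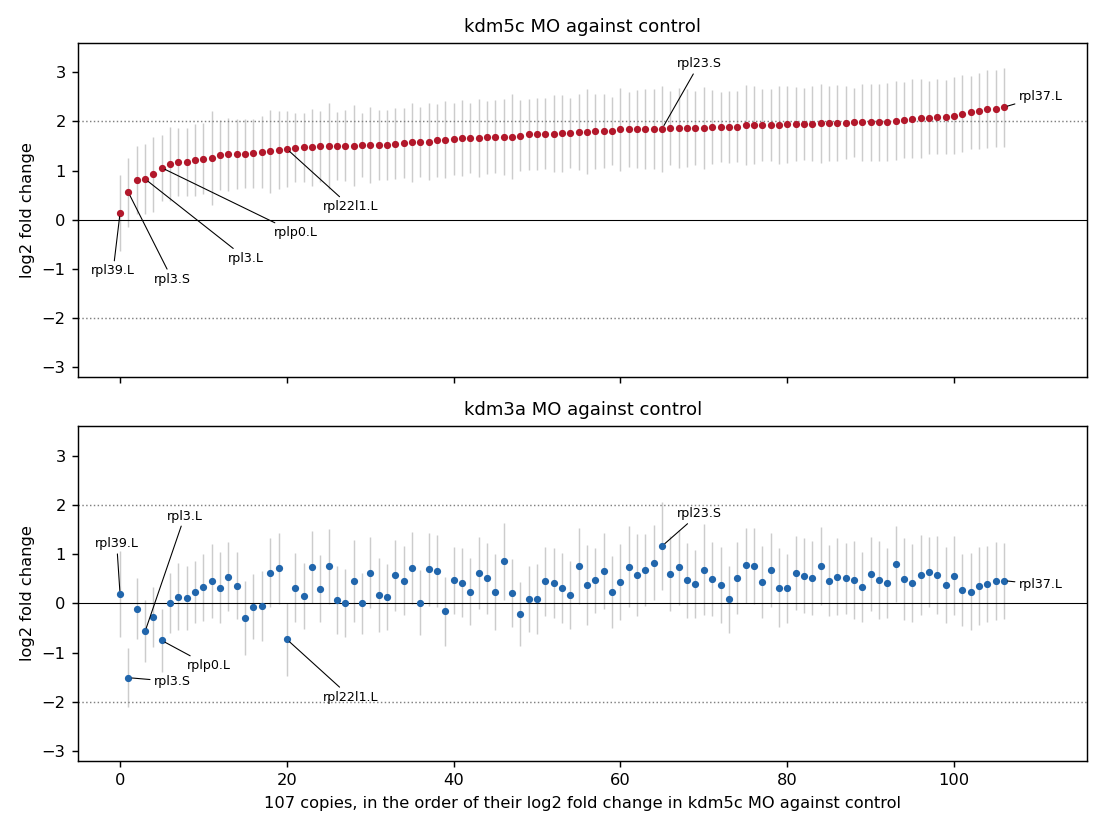
Points give the log2 fold change (y axis) of 107 ribosomal protein copies with bars of 1 SE, in kdm5c MO against control (upper panel) and kdm3a MO against control (lower panel), with the copies ordered along the x axis by their value in the upper panel and dotted lines at 4-fold. All points of the upper panel are above 0, from 0.14 (rpl39.L) to 2.29 (rpl37.L), while those of the lower panel lie around 0.43, with rpl3.S at -1.51. Both panels use the same 2 controls.

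From library to library the copies moved in near parallel. Each copy was expressed as log2(CPM + 0.5) minus its mean over the 6 libraries. The median over the 107 copies was 1.74 and 0.23 in kdm5c MO libraries, 0.40 and -1.11 in kdm3a MO libraries, and -0.67 and -0.53 in controls. Library kdm5c MO 1 had the highest level of 105 of the 107 copies, where it was highest for 25.2% of the 16675 models with a mean of at least 100 counts. Library kdm3a MO 4 had the lowest level of 89 copies, where it was lowest for 13.4% of these models. The ratio of the highest to the lowest library was 7.31 in the median copy and ran from 2.58 to 14.5. In 85 copies the level stayed within 0.5 (log2) of the median of all copies in every library, and in 96 copies Pearson's correlation with that median over the 6 libraries was above 0.9 (median 0.983). These correlations describe only 6 libraries that share their scaling, and the copy itself is part of the median. Neither count was made over all models, so the parallel movement is not shown to be particular to these copies. The median of the respiratory chain genes described below was also highest in kdm5c MO 1 (1.48), and was lowest in control 1 (-1.06).

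The exceptions were few, and several belonged to the same genes. rplp0.L had the lowest correlation with the median (0.389), followed by rpl3.S (0.586), rpl39.L (0.674), rplp0.S (0.691), rpl7l1.L (0.789) and rpl38.L (0.794). The copies of rplp0 lay 0.99 (L) and 0.73 (S) above the median of all copies in kdm5c MO 2 and 1.56 (L) and 1.04 (S) below it in kdm3a MO 3. rpl3.S lay 1.43 below the median in kdm3a MO 3 and 1.17 above it in control 1. rpl38.L lay 1.40 below it in kdm5c MO 2, and rpl39.L lay 1.19 below it in kdm5c MO 1. For rplp0 and rpl3 both copies departed in the same direction in each of the kdm3a MO 3 and kdm5c MO 1 libraries, whereas rpl38.L and rpl39.L departed without their S copies.

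**Figure D3:**
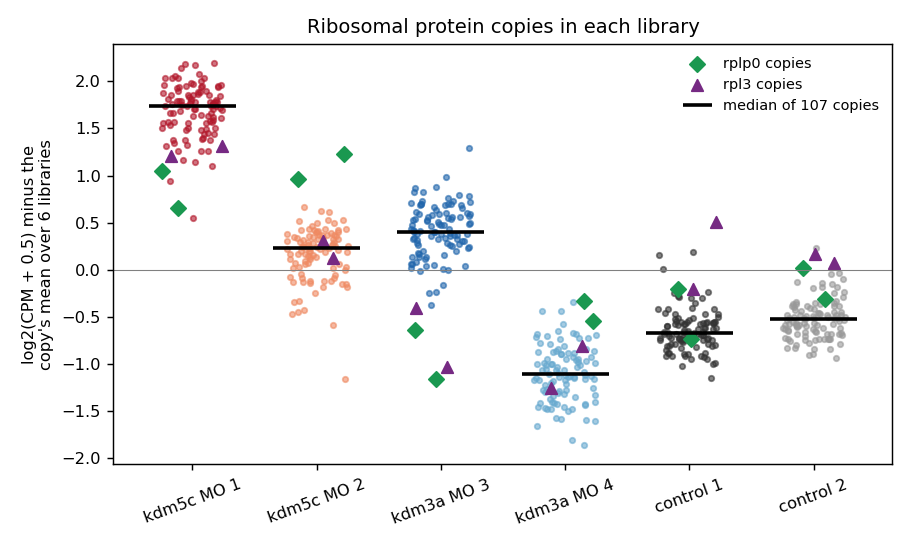
Each point is 1 ribosomal protein copy, plotted as log2(CPM + 0.5) minus its mean over the 6 libraries (y axis) in each library (x axis), with the median as a black bar and the rplp0 and rpl3 copies as diamonds and triangles. The cloud is highest in kdm5c MO 1 (median 1.74) and lowest in kdm3a MO 4 (median -1.11), and the rplp0 copies sit above the cloud's median in kdm5c MO 2 and below it in kdm3a MO 3.

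The L and S copies were compared through the L share, the percentage of the summed L and S counts of a gene that fell on the L copy. This ratio does not depend on how libraries are scaled, although how reads that match both copies were assigned is not given, and the lengths of the cDNA models were not used. Over the 48 genes with both copies the median L share was 50.1% (interquartile range 43.8% to 58.4%), beside 55.4% (39.6% to 71.7%) over all 7289 gene pairs with a mean of at least 100 counts. An L share between 40% and 60% was found for 27 of the 48 genes (56.2%), beside 32.7% of all pairs. A share under 20% or over 80% was found for 6 genes (12.5%), beside 25.4% of all pairs. The L copy was the larger for 24 of the 48 genes, beside 59.2% of all pairs. Ribosomal protein genes are highly counted, so that their shares carry less counting error than those of the average pair.

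The L share of a ribosomal protein gene varied little. Its SD over the 6 libraries was 2.73 percentage points in the median gene, beside 7.13 in the median of all pairs, and its range was 7.03 points, beside 18.8. The same copy was the larger in all 6 libraries for 35 genes (72.9%), beside 64.0% of all pairs. The median share per library lay between 49.8% and 51.1%, although the total of these counts differed several-fold between the libraries.

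The L copy dominated most in rpl36a, at 94.5% and 94.6% in kdm5c MO libraries, 93.3% and 93.4% in kdm3a MO libraries, and 91.7% and 89.4% in controls. rpl3 had an L share of 84.9% and 84.2% in kdm5c MO libraries, 90.3% and 89.1% in kdm3a MO libraries, and 78.7% and 85.0% in controls. rplp0 had 77.1% and 84.1% in kdm5c MO libraries, 75.6% and 79.3% in kdm3a MO libraries, and 86.5% and 84.8% in controls. For rpl36a both morpholino groups were above the controls, for rpl3 only the kdm3a MO libraries were, and for rplp0 all 4 morpholino libraries were below both controls. rpl23 (69.8% to 87.2% over the 6 libraries) and rpl5 (63.1% to 78.7%) were the other genes with the highest mean L share.

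The S copy dominated most in rpl39, whose L share was 1.23% and 1.89% in kdm5c MO libraries, 3.95% and 4.51% in kdm3a MO libraries, and 3.93% and 6.10% in controls. rpl38 had an L share of 18.2% and 8.10% in kdm5c MO libraries, 18.3% and 22.4% in kdm3a MO libraries, and 19.4% and 25% in controls. Both kdm5c MO libraries had the lowest shares of rpl39, while for rpl38 kdm5c MO 2 stood alone and kdm5c MO 1 was close to kdm3a MO 3. rpl12 (15.3% to 27.0%), rps21 (19.7% to 26.4%) and rps28p9 (35.7% to 38.6%) completed the 5 genes with the lowest mean share, the last with the narrowest range of all 48 genes. The widest ranges were those of rpl23 (17.4 points), rpl38 (16.9 points) and rps3 (16 points, 46.8% in kdm5c MO 2 to 62.8% in kdm3a MO 3). For rpl23 both replicates of each morpholino group disagreed, with 73.3% and 87.2% in kdm5c MO libraries, 69.8% and 84.7% in kdm3a MO libraries, and 80.8% and 80.7% in controls.

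Other genes fixed by their role sat nearer the middle. rpsa had an L share of 39.2% and 40.1% in kdm5c MO libraries, 40.8% and 39.6% in kdm3a MO libraries, and 29.1% and 44.6% in controls, so that the controls enclosed all 4 morpholino libraries. rps6 ran from 63.1% to 72.7%, rps27a from 55.9% to 66.5% and rps26 from 40.2% to 46.1% over the 6 libraries.

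Whether the L share differed between conditions was tested with the log2 ratio of L to S across all pairs (edgeR's quasi-likelihood fit and its test for differential exon usage, with the copies in place of exons). At an FDR below 0.05, 0 of 48 ribosomal protein genes were called in kdm5c MO against control, where 0% of the 7709 pairs tested were, and 0 of 48 in kdm3a MO against control, where 0% of 7824 pairs were. A limma test of the log2 ratio called 0 in both as well. At an unadjusted p below 0.05 there was 1 ribosomal protein gene in kdm5c MO against control, beside 0.545% of all pairs, and 0 in kdm3a MO against control, beside 1.02%. The gene was rpl39, for which the log2 fold change of L minus that of S was -1.90 in kdm5c MO against control (edgeR quasi-likelihood, adjusted p = 0.999, unadjusted p = 0.0406). In kdm3a MO against control the largest such difference was that of rpl3, at 0.94 (edgeR quasi-likelihood, adjusted p = 0.999, unadjusted p = 0.0841). Few pairs of any kind had an unadjusted p below 0.05, so 0 calls do not show that L shares were equal.

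The fold changes of the L and S copies of a gene were mostly close in size. In kdm5c MO against control they were within 0.5 (log2) of each other for 45 of 48 genes (93.8%), beside 57.0% of all pairs. This held for 41 genes (85.4%) in kdm3a MO against control, beside 54.6%, and for 46 genes (95.8%) in kdm3a MO against kdm5c MO, beside 60.9%. These shares describe copies measured in the same libraries, and reads of one copy that were assigned to the other would bring the values closer. How far that occurred was not tested. Copies of different genes also lay close together (interquartile range 1.5 to 1.94 in kdm5c MO against control). The closeness is therefore not shown to be particular to copies of the same gene. Pearson's correlation of L with S fold changes was 0.494 in kdm5c MO against control, beside 0.578 over all pairs. It was 0.643 in kdm3a MO against control, beside 0.538, and 0.582 in kdm3a MO against kdm5c MO, beside 0.531.

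**Figure D4:**
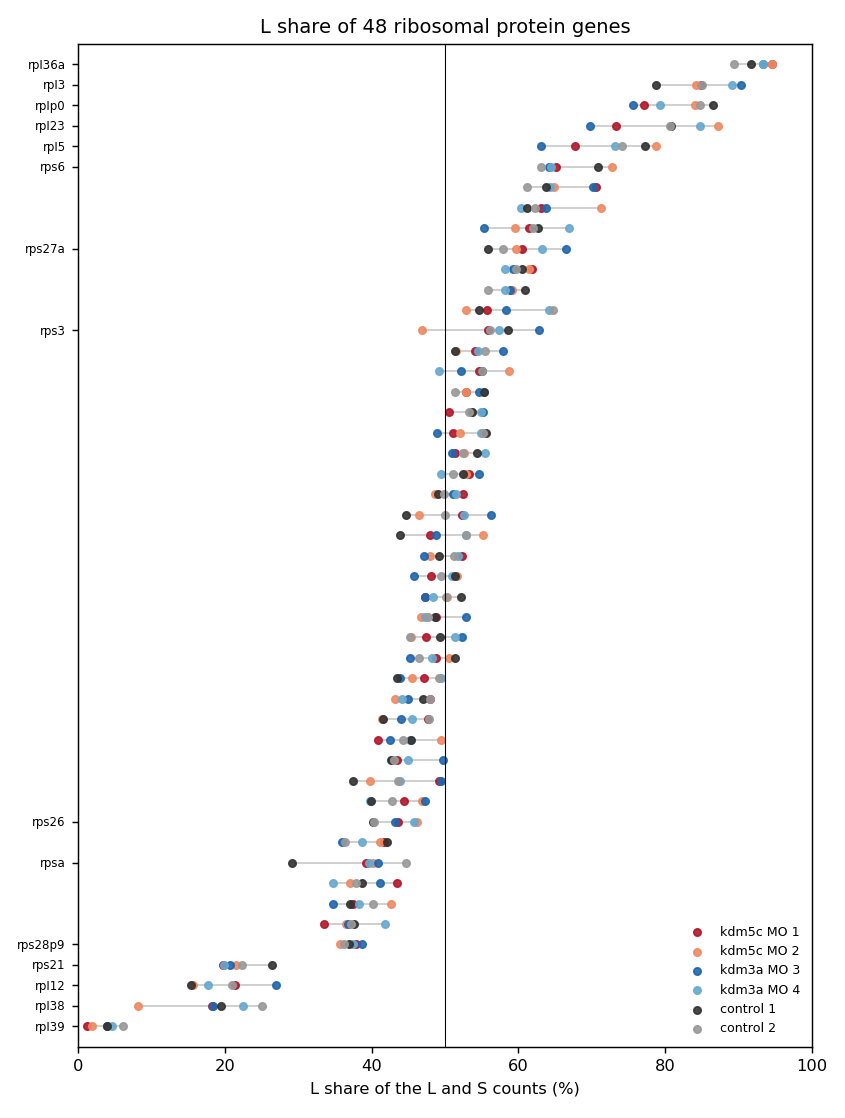
Each row is 1 of 48 ribosomal protein genes with an L and an S copy, sorted by mean L share, and each point is the L share in percent (x axis) of 1 library, coloured by library, with names on the genes described in the text. Shares run from 94.6% for rpl36a to 1.23% for rpl39, and points of most genes lie within 10 points of each other, with the widest range for rpl23 (69.8% to 87.2%).

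The copies were set beside other genes of translation and of growth, from lists chosen with earlier results of these data known. In none of the lists was a gene called in kdm5c MO or kdm3a MO against control by the edgeR exact test, so their medians are given as descriptions. Other genes known for 5′ TOP mRNAs in mammals, such as translation elongation factors and tpt1, had a median log2 fold change of 0.80 in kdm5c MO against control. At an unadjusted p below 0.05, 4 of 23 copies were higher, where 3.29% of all models were. The median in kdm3a MO against control was 0.14. The list was not uniform. fau, whose product carries the small subunit protein S30 behind a ubiquitin-like part, was at 1043 and 264 CPM for the L copy in kdm5c MO libraries, 449 and 113 CPM in kdm3a MO libraries, and 149 and 166 CPM in controls (2.06, log2, in kdm5c MO against control). That value is above the median of the ribosomal protein copies themselves. By contrast pabpc1.L, for the poly(A) binding protein, was at 772 and 362 CPM in kdm5c MO libraries, 535 and 462 CPM in kdm3a MO libraries, and 830 and 456 CPM in controls (-0.17).

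Mitochondrial ribosomal proteins are encoded in the nucleus and build the ribosome of the mitochondrion. Their median was 1.25 in kdm5c MO against control and 0.27 in kdm3a MO against control. In kdm5c MO, 29 of 97 copies were higher at an unadjusted p below 0.05, where 3.29% of all models were. That share also applies to the lists that follow. Genes of translation initiation factors, taken by symbol prefix alone, had medians of 0.40 in kdm5c MO and -0.18 in kdm3a MO against control. Of these, 0 of 77 copies were higher at an unadjusted p below 0.05 in kdm5c MO. Ribosome biogenesis factors, such as nucleolin and fibrillarin, had medians of 0.18 in kdm5c MO and -0.60 in kdm3a MO against control, with 0 of 65 copies higher in kdm5c MO. The assembly factors shared only part of the library pattern of the proteins they assemble. Their median level was highest in kdm5c MO 1 (0.59), as for the ribosomal protein copies. It was next highest in control 1 (0.48) and lowest in kdm3a MO 3 (-0.60), where the ribosomal protein copies were at -0.67 and 0.40.

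A further 4 lists were chosen after seeing the data. They were taken by symbol prefix alone, so not every gene in them need encode a subunit. Genes of the mitochondrial respiratory chain had medians of 1.76 in kdm5c MO and 0.50 in kdm3a MO against control. In kdm5c MO, 84 of 133 copies were higher at an unadjusted p below 0.05, where 3.29% of all models were. The ribosomal protein copies were thus not alone in their pattern. Proteasome genes had medians of 0.91 in kdm5c MO and -0.09 in kdm3a MO against control. Solute carriers had medians of -0.13 and collagens of -0.10 in kdm5c MO against control, and collagens were lowest in control 1 (-1.29 from their mean over the 6 libraries). Ribosomal protein and respiratory chain genes are both highly counted, and transcript length and RNA quality were not examined.

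**Figure D5:**
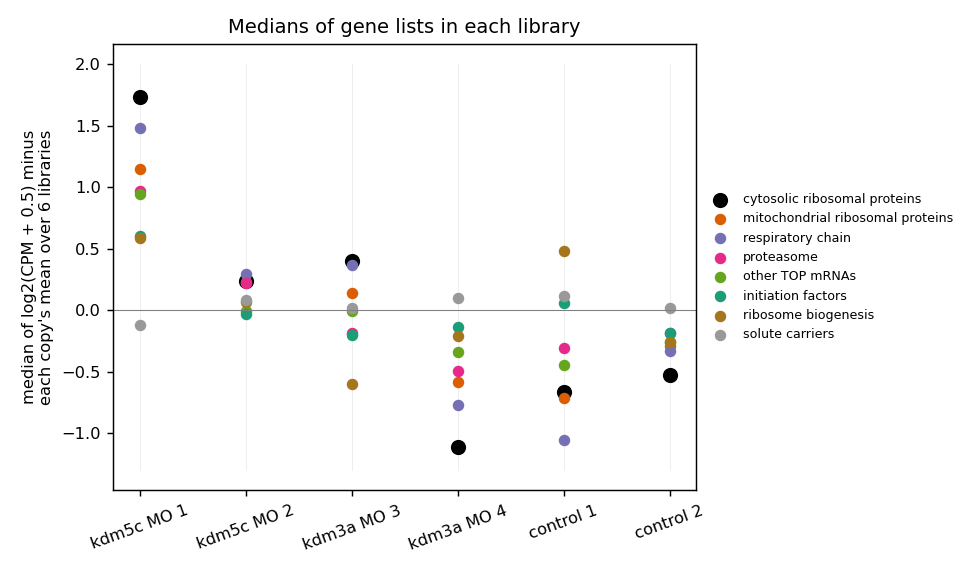
Points give, for each library (x axis), the median over the copies of a list of log2(CPM + 0.5) minus each copy's mean over the 6 libraries (y axis), for cytosolic ribosomal proteins in black and 7 other lists in colour. In kdm5c MO 1 the ribosomal protein median of 1.74 is the highest, followed by the respiratory chain at 1.48 and mitochondrial ribosomal proteins at 1.15, while solute carriers stay between -0.12 and 0.12 in all 6 libraries.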

How the data were processed

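Whole-embryo poly(A) RNA of 6 libraries (2 per condition) was made into Illumina libraries. The authors mapped the reads with BWA (version 0.7.10 per the labels, another version in the methods) to cDNA models of the genome project and deposited 1 whole-number count for each gene model and library, not normalized. Between 89.7% and 95.0% of counts of 20 or fewer were even, so the counts may hold both reads of a pair, and fragments are then fewer than counts. Handling of reads that match several models is not given in the sources used here.

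Counts that passed filterByExpr were scaled by TMM. The exact test of edgeR 4.0.16 (R 4.3.3) was run on the 4 libraries of each comparison, with Benjamini-Hochberg adjustment over all models and the study's limits (FDR below 0.01, fold above 4). L shares were tested over all pairs by diffSpliceDGE (FDR below 0.05), which in simulated data made more false calls than that limit. The simulated libraries varied less than the real ones. In the exact test, the fitted biological coefficient of variation was 0.647 in kdm5c MO and 0.622 in kdm3a MO against control. The simulation therefore does not show how the L share test behaves on these data. Groups came from the sample labels. Named genes were the 3 highest and 3 lowest copies of each comparison, the 5 highest, 5 lowest and 3 most variable L shares, copies fixed by role, paralogs, and copies at 0, of which 1 copy is not reported here. Others were chosen after their values were seen. The members and lists were chosen with earlier results of these data known. Alternatives were other scalings, filters and fits, DESeq2 1.42.0, limma 3.58.1, summed copies, the replicate block and each library left out. Other experiments of the authors were not used here.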

Additional observations from a re-analysis of the deposited data

How the results depend on the processing

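No ribosomal protein copy was called in any of the 3 comparisons, and no L share, under any alternative run. The number of copies with an unadjusted p below 0.05 moved more. In kdm5c MO against control it was 80, with 35 under library size alone, 51 by the quasi-likelihood test, 44 of 59 genes with copies summed, and 0 to 94 when 1 library was left out. In kdm3a MO against control it was 1, with 0 for summed copies and 0 without kdm3a MO 3. In kdm3a MO against kdm5c MO it was 22, with 7 under library size alone, 5 by the quasi-likelihood test, 58 by DESeq2, 13 of 59 genes for summed copies, and 1 to 82 when 1 library was left out. Leaving out 1 library gave medians (log2) of 0.81 to 2.26 in kdm5c MO and -0.49 to 1.02 in kdm3a MO against control, and of -2.29 to -0.38 in kdm3a MO against kdm5c MO. For the share of counts in kdm3a MO minus control it gave -0.918 to 2.60 percentage points, negative without kdm3a MO 3. Library size alone moved the median of all models by -0.32, to -0.34, in kdm5c MO against control, and the member median was then 1.29. In kdm3a MO against kdm5c MO it moved the median of all models by 0.30.

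By the numbers in the sample titles, libraries of kdm5c MO and control share 1 and 2, with nothing to say that a number marks a clutch. The second control is numbered 3 in its description, and under that number the groups share only 1, so the values that follow rest on the title. Libraries of equal number deviated together with a Pearson correlation of 0.242 over all models. With the replicate number as a block, 39 copies had an unadjusted p below 0.05 by the quasi-likelihood test (4.13% of all models). The median log2 fold change of the copies was then 1.55. By title the kdm3a MO libraries (3 and 4) share no number with the others, and by description they share 3 with the second control, which is too few for a block.

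Single copies changed sign as follows, on the log2 scale. In kdm5c MO against control, rpl39.L was at -0.30 under library size alone and between -0.48 (without kdm5c MO 1) and 0.47 (without kdm5c MO 2), with -0.093 without control 1, and rpl3.S lay between -0.052 (without kdm5c MO 1) and 0.89 (without kdm5c MO 2). In kdm3a MO against control, leaving out kdm3a MO 3 gave -0.29 for rpl24.S and -0.61 for rpl23.S, and leaving out kdm3a MO 4 gave 1.45 for rpl24.S and 1.94 for rpl23.S. In kdm3a MO against kdm5c MO, rpl39.L was at -0.34 without kdm5c MO 2, at -1.21 without kdm3a MO 3 and at 0.75 without kdm3a MO 4. The summed L and S copies of rpl39 were at -1.46, where rpl39.S alone was at -1.51. In the same comparison rps3.L lay between -1.55 (without kdm3a MO 3) and 0.51 (without kdm5c MO 1), and rpl23.S between -2.46 (without kdm3a MO 3) and 0.99 (without kdm5c MO 1), with 0.14 without kdm3a MO 4. The cause of these changes was not tested, and 2 libraries per group limit every comparison.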
